A study of Saccharomyces cerevisiae with 20 samples.

Results

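The oxidative defence genes described here are 10 genes of *S. cerevisiae* chosen by name from the 5985 nuclear protein-coding genes analysed: the catalase genes *CTT1* (YGR088W) and *CTA1* (YDR256C), the superoxide dismutase genes *SOD1* (YJR104C) and *SOD2* (YHR008C), the thioredoxin gene *TRX2* (YGR209C), the peroxiredoxin genes *TSA1* (YML028W) and *TSA2* (YDR453C), the glutaredoxin genes *GRX1* (YCL035C) and *GRX2* (YDR513W), and the glutathione peroxidase gene *GPX1* (YKL026C). The rule names the genes and uses no measured value, and all 10 had values in every sample. The levels of Gcn5 (the catalytic subunit of the SAGA histone acetyltransferase, read through a myc tag), of histone H3 acetylated at lysine 18 (H3K18ac), of histone H4 acetylated at lysine 16 (H4K16ac) and of histone H3 were measured by ChIP-chip, in which immunoprecipitated DNA is hybridised to a tiling array against input DNA. The cells of every group were of 1 strain, BQS1350, a BY4742 derivative (*MATα his3 leu2 lys2 ura3*) that carries Gcn5-MYC13-KanMX6, grown in YPD medium with glucose. Sample A was taken in log phase without KCl. Sample B was taken 1 h after transfer to 1 M KCl, and sample C after the cells had adapted to growth in 1 M KCl. Sample D was taken 1 h after return to medium without KCl, and sample E after some generations of growth there.

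There is 1 deposited value per gene, bin, antibody and sample. The 2 cultures that the study describes are not kept apart, so no value has a replicate error and no test between samples was possible. The values are log-scale ChIP signals in arbitrary units, with a log base that the sources used here do not give. Levels are therefore set against each other by subtraction, without fold changes. Each gene was divided by the authors into 9 bins of the 5′ intergenic region (5′ IGR, from the middle of the upstream intergenic region to the start codon), 20 bins of the open reading frame (ORF) and 9 bins of the 3′ IGR. A level below is the mean over the 9 bins of an IGR or over the 8 bins of the central 40% of the ORF, after the 5 samples of an antibody had been brought to one median. As a measure of how far a value moves between samples that had the same medium, the size of sample E minus sample A was taken over all genes, and its 95th percentile was used as a limit. "Rose" and "fell" are used only of changes beyond that limit, which by construction 5% of all genes pass between samples A and E. At the 5′ IGR the limit was 0.217 for Gcn5, 0.225 for H4K16ac, 0.442 for H3, 0.309 for H3K18ac and 0.621 for H3K18ac minus H3. At the ORF it was 0.292 for H3, 0.217 for H3K18ac, 0.194 for H4K16ac and 0.143 for Gcn5.

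Growth in oxygen produces superoxide and hydrogen peroxide, which damage proteins, lipids and DNA. Superoxide dismutases convert superoxide to hydrogen peroxide, and catalases, peroxiredoxins and glutathione peroxidases then remove peroxides. Peroxiredoxins are reduced again by thioredoxin, and glutathione peroxidases and glutaredoxins depend on glutathione or thioredoxin. In yeast many of these genes are targets of the redox regulators Yap1 and Skn7, and some, with *CTT1* as the textbook case, are also targets of the general stress factors Msn2 and Msn4, which respond to osmotic stress. High H3K18ac upstream of a gene is known to accompany active transcription, and loss of H3 from a promoter is known to accompany strong induction.

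In growth without KCl the 10 genes differed widely among themselves. In sample A the H3K18ac level at the 5′ IGR ran from -0.81 for *CTA1*, percentile 1.47 of all genes, to 1.49 for *SOD1*, percentile 98.1. *GRX1* (1.24), *TSA1* (1.16), *SOD2* (0.99), *GRX2* (0.92), *TRX2* (0.87), *GPX1* (0.78), *TSA2* (0.64) and *CTT1* (0.62) lay between them. The median of the 10 genes was 0.90, and that of all genes was 0.52. *CTA1*, the peroxisomal catalase gene, which is known to be repressed by glucose, was the only one of the 10 below the median of all genes. The order of the H4K16ac levels was another one. *GRX1* was highest with 1.26, followed by *GPX1* with 0.87 and *SOD2* with 0.83, whereas *CTT1* with 0.098, *TSA1* with 0.033 and *CTA1* with 0.015 were lowest. The level of H3 at the 5′ IGR was highest for *CTT1* with 0.37, percentile 96.1 of all genes, and lowest for *GPX1* with -0.51. Gcn5 at the 5′ IGR was highest for *SOD1* with 0.33 and lowest for *GPX1* with -0.34.

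**Figure D1:**
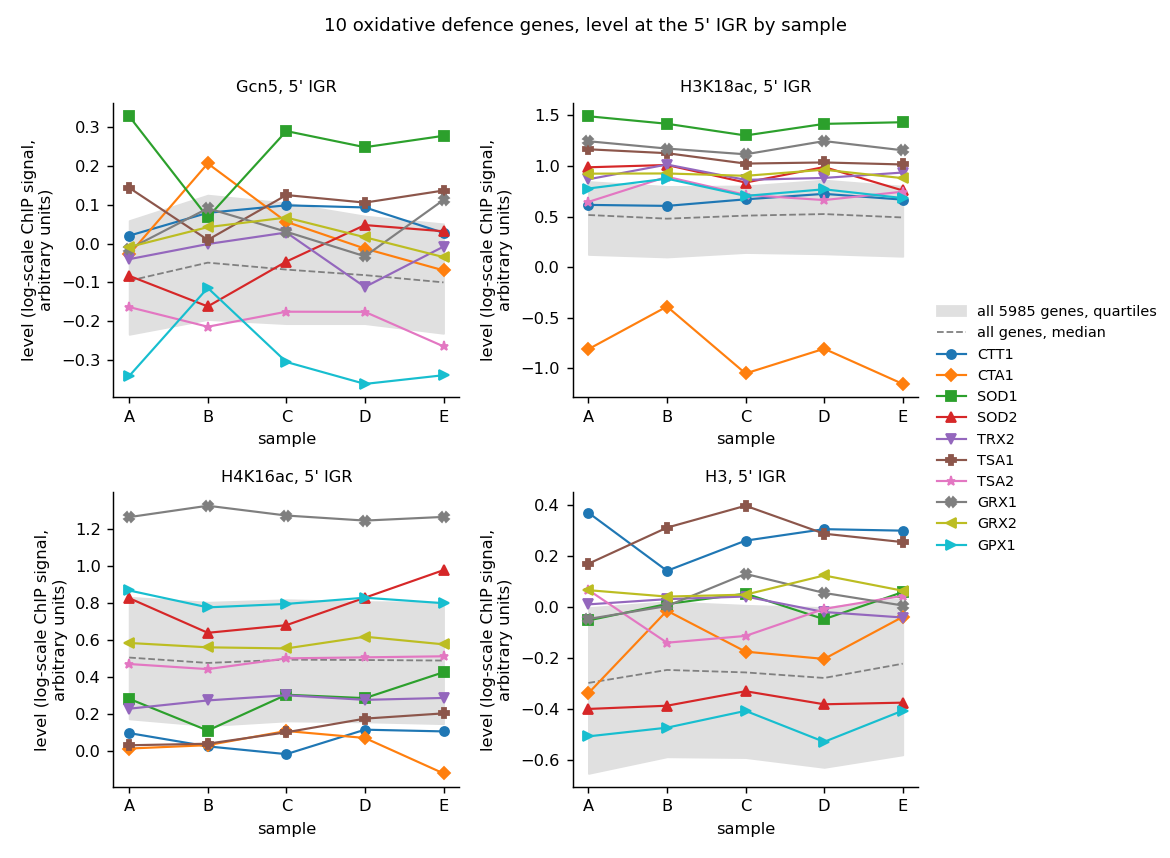
Level at the 5′ IGR (y axis, log-scale ChIP signal in arbitrary units) of the 10 genes in samples A to E (x axis) for each of the 4 antibodies, 1 value per point. The grey band spans the quartiles of all 5985 genes and the dashed line is their median. *CTA1* lies below all other members in H3K18ac, *GRX1* above all others in H4K16ac, and *CTT1* is highest in H3 in samples A, D and E, below *TSA1* in samples B and C.

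*SOD1*, the gene of the abundant cytosolic copper-zinc superoxide dismutase, stood apart over its ORF. In sample A its H3 level at the ORF was -0.96, percentile 1.54 of all genes, and its H3K18ac level was 1.47, percentile 99. H3K18ac minus H3 at its ORF was 2.43, against 1.18 for *SOD2*, the next of the 10 genes, and -0.12 for the median of all genes. 8 of the 10 genes are shorter than 1 kb, and short genes had more H3K18ac at the ORF than others: the median over the 2395 genes shorter than 1 kb was 0.49 and that over all genes 0.15. Among these short genes alone *SOD1* lay at percentile 97.7 in H3K18ac, *SOD2*, the gene of the mitochondrial manganese enzyme, at percentile 95.9, *TSA1* at 95.6 and *TRX2* at 91.3. Gcn5 at the ORF in sample A was likewise high for *TRX2* (0.32), *TSA1* (0.31), *SOD2* (0.30) and *SOD1* (0.25), and low for *GPX1* (-0.45) and *GRX2* (-0.28). *CTT1* and *CTA1*, the longer genes with 1689 and 1548 bp, had H3K18ac levels at the ORF of 0.35 and -0.042.

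From sample A to sample B, 1 h into KCl, few of the 10 genes moved beyond the limit at the 5′ IGR, and they did not move together. H3K18ac rose at 1 gene, *CTA1*, and fell at none. Over all genes 7.35% rose and 10.8% fell. The median change of the 10 genes was 0.012, and that of all genes was -0.051. For H3 no member passed the limit, and 4.81% of all genes did. For H3K18ac minus H3 no member passed it either, and 7.92% of all genes did. Gcn5 rose at *CTA1* and *GPX1* (14.7% of all genes rose) and fell at *SOD1* (6.67% fell). For Gcn5 minus H3 no member passed the limit of 0.519, whereas 266 of the 5985 genes rose and 239 fell. For H4K16ac no member passed the limit, and 10.6% of all genes did. The median H3K18ac level over the ORF of the 10 genes was 0.88 in sample A against 0.97 in sample B. That of all genes was 0.15 against 0.20. Gene by gene, the median change at the ORF was only 0.046 for the 10 genes and 0.026 for all genes. There H3K18ac rose at *CTA1* and *TSA2*, and 9.59% of all genes rose. For H3 at the ORF no member passed the limit, and 4.33% of all genes did. The median changes of the 10 genes for the other antibodies were small too. At the 5′ IGR they were 0.027 for H3, -0.026 for H4K16ac and 0.045 for Gcn5. At the ORF they were 0.097 for H3, 0.013 for H4K16ac and -0.047 for Gcn5.

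**Figure D2:**
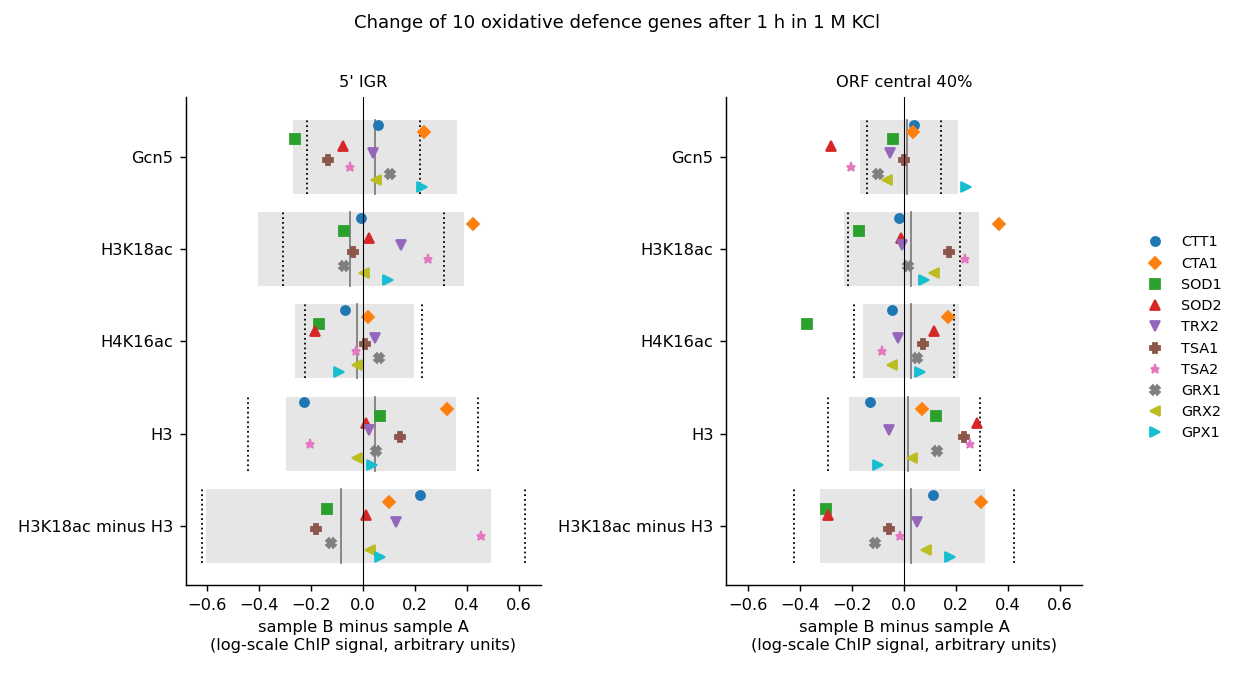
Sample B minus sample A (x axis, log-scale ChIP signal in arbitrary units) for the 10 genes at the 5′ IGR and at the central 40% of the ORF, by antibody and for H3K18ac minus H3. Grey bars span percentiles 5 to 95 of all genes with their median as a line, and dotted lines mark the limit. Most members lie inside the limit, and those outside it are *CTA1*, *SOD1*, *SOD2*, *TSA2* and *GPX1*.

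Of the catalase genes, *CTT1*, which encodes the cytosolic enzyme, had its lowest H3 level in sample B. H3 at its 5′ IGR was 0.37, 0.14, 0.26, 0.31 and 0.30 in samples A to E. The level of sample B thus lay below the range of the other samples, but its difference of -0.23 from sample A was inside the limit, at percentile 7.49 of all genes. In 9 of 9 bins of the 5′ IGR and in 20 of 20 bins of the ORF, H3 was below sample A in sample B. Neighbouring bins are not replicates, and over all genes 3.32% had all 9 bins of the 5′ IGR and 2.71% all 20 bins of the ORF lower. H3K18ac at the 5′ IGR of *CTT1* was 0.62, 0.61, 0.67, 0.72 and 0.67 in samples A to E. It was thus lowest 1 h into KCl, but below sample A by very little and well inside the limit. H3K18ac minus H3 was 0.25 in sample A against 0.46 in sample B, a difference within the limit that came from H3. In the 4 bins nearest the start codon it was 0.26, 0.43, 0.41, 0.42 and 0.38 in samples A to E. In the 4 farthest bins it was 0.27, 0.55, 0.49, 0.45 and 0.42. In both parts samples C, D and E thus lay nearer to sample B than to sample A. Gcn5 at the 5′ IGR of *CTT1* was 0.020, 0.079, 0.099, 0.093 and 0.028 in samples A to E, the lowest levels being those of samples A and E. The upstream intergenic region of *CTT1* is shared with the divergent gene *PDC6*, and the 5′ IGR covers the part nearer to *CTT1*.

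*CTA1* had the largest H3K18ac change of the 10 genes. H3K18ac at its 5′ IGR was -0.81, -0.39, -1.05, -0.81 and -1.15 in samples A to E. The rise of 0.42 from sample A to sample B lay at percentile 95.6 of all genes, and sample B was above all other samples. From sample B to sample C the level fell by 0.66, and sample E lay 0.34 below sample A, also beyond the limit, so the samples without KCl differed from each other almost as much as sample B differed from sample A. Over the ORF of *CTA1* samples A, C, D and E were closer together, from -0.043 to 0.0024, and sample B stood at 0.32. The rise of 0.37 at the ORF lay at percentile 97.4 of all genes, and H3K18ac was higher in sample B in 9 of 9 bins of the 5′ IGR and in 20 of 20 bins of the ORF. This held for 11.9% and 10.4% of all genes, respectively. H3 at the 5′ IGR of *CTA1* was -0.34, -0.014, -0.17, -0.20 and -0.038 in samples A to E, with sample B highest. H3K18ac minus H3 therefore differed by only 0.098 between samples B and A. Gcn5 at the 5′ IGR rose by 0.23, from -0.028 in sample A to 0.21 in sample B, with 0.056, -0.013 and -0.069 in samples C, D and E. With H3 subtracted, this Gcn5 difference was -0.089. Even in sample B the H3K18ac level at the 5′ IGR of *CTA1* remained the lowest of the 10 genes.

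**Figure D3:**
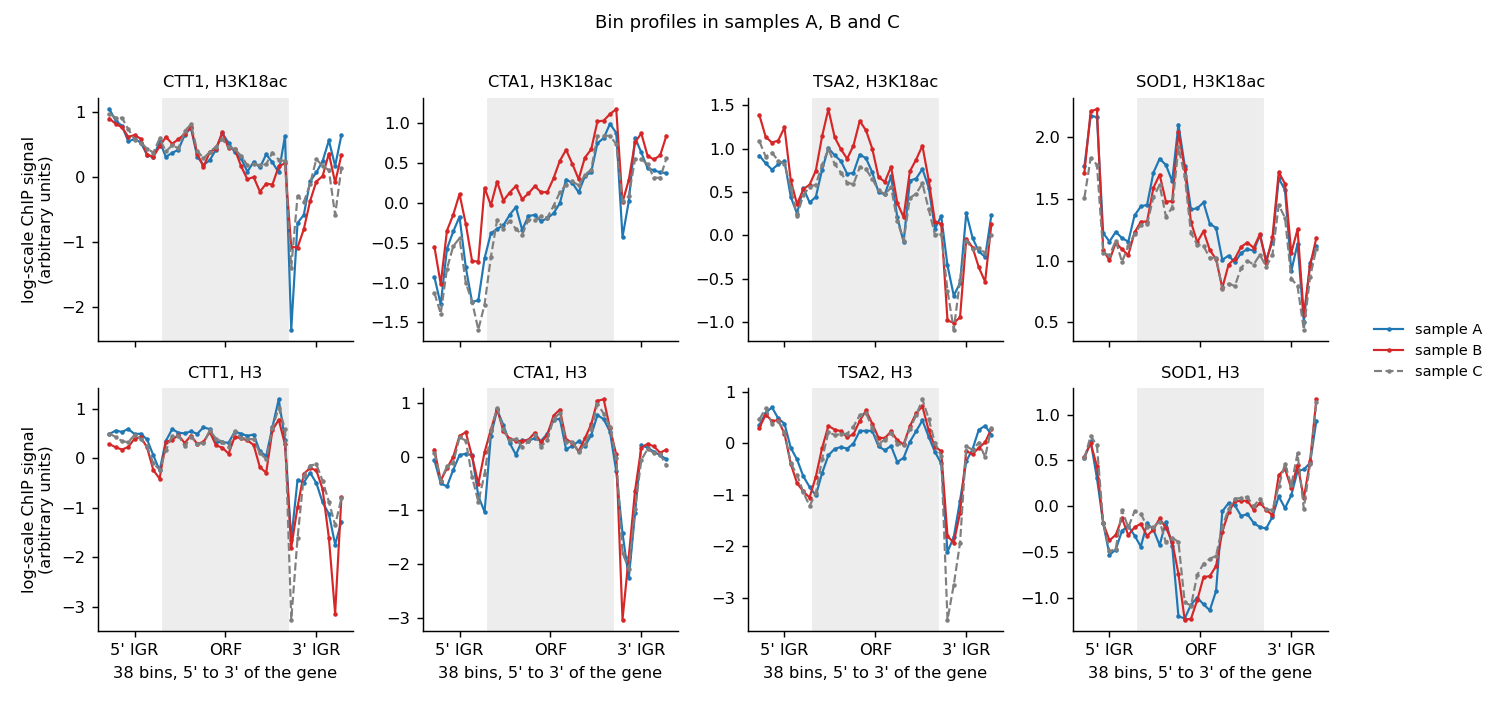
Signal in the 38 bins (x axis, 5′ IGR, ORF shaded grey, 3′ IGR) of *CTT1*, *CTA1*, *TSA2* and *SOD1* for H3K18ac (upper row) and H3 (lower row) in samples A, B and C (y axis, log-scale ChIP signal in arbitrary units, with a scale of its own in each panel). In sample B H3 lies below sample A throughout the 5′ IGR and ORF of *CTT1*, H3K18ac lies above sample A throughout the 5′ IGR and ORF of *CTA1*, H3 of *TSA2* is lower upstream and higher over the ORF, and H3 of *SOD1* dips to about the middle of the ORF in all 3 samples.

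*SOD1* lost Gcn5 upstream and H4K16ac over its ORF. Gcn5 at its 5′ IGR was 0.33, 0.067, 0.29, 0.25 and 0.28 in samples A to E. The fall of 0.26 lay at percentile 5.21 of all genes, Gcn5 rose again by 0.22 from sample B to sample C, and all 9 bins of the 5′ IGR were lower in sample B, which held for 5.05% of all genes. In the 4 bins nearest the start codon the Gcn5 level was 0.20 in sample A against -0.18 in sample B. With H3 subtracted, the Gcn5 difference at the 5′ IGR did not pass the limit. H4K16ac at the ORF was 0.61, 0.23, 0.53, 0.70 and 0.59 in samples A to E. This fall of 0.37, at percentile 0.769 of all genes, was the only H4K16ac change of the 10 genes beyond the limit at the ORF, where 3.21% of all genes fell. H3K18ac of *SOD1* stayed high throughout, from 1.30 in sample C to 1.49 in sample A at the 5′ IGR. Over the ORF H3K18ac was 1.47 in sample A against 1.30 in sample B, and H3 was -0.96 in sample A and between -0.84 and -0.66 in the other samples. H3K18ac minus H3 at the ORF was thus 2.43 in sample A and 1.89 to 2.14 later, and sample E lay beyond the limit below sample A. The divergent neighbour of *SOD1* is *ADO1*.

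*SOD2* lost Gcn5 over its ORF. In samples A to E it measured 0.30, 0.022, 0.099, 0.24 and 0.18, so that sample B was lowest and sample C lay next to it. The fall of 0.28 lay at percentile 1.94 of all genes, and 7.22% of all genes fell in Gcn5 at the ORF. All 20 bins were lower in sample B than in sample A, which held for 2.96% of all genes. Downstream, Gcn5 at the 3′ IGR of *SOD2* fell by 0.30, from 0.085 to -0.22, and was 0.061, 0.14 and 0.10 in samples C, D and E. H3 at the ORF of *SOD2* was 0.16 in sample A against 0.44 in sample B, a difference of 0.28 that lay just inside the limit. Samples C, D and E, with 0.37, 0.34 and 0.44, stayed on the side of sample B. H3K18ac at the ORF of *SOD2* was 1.34 in sample A against 1.33 in sample B.

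**Figure D4:**
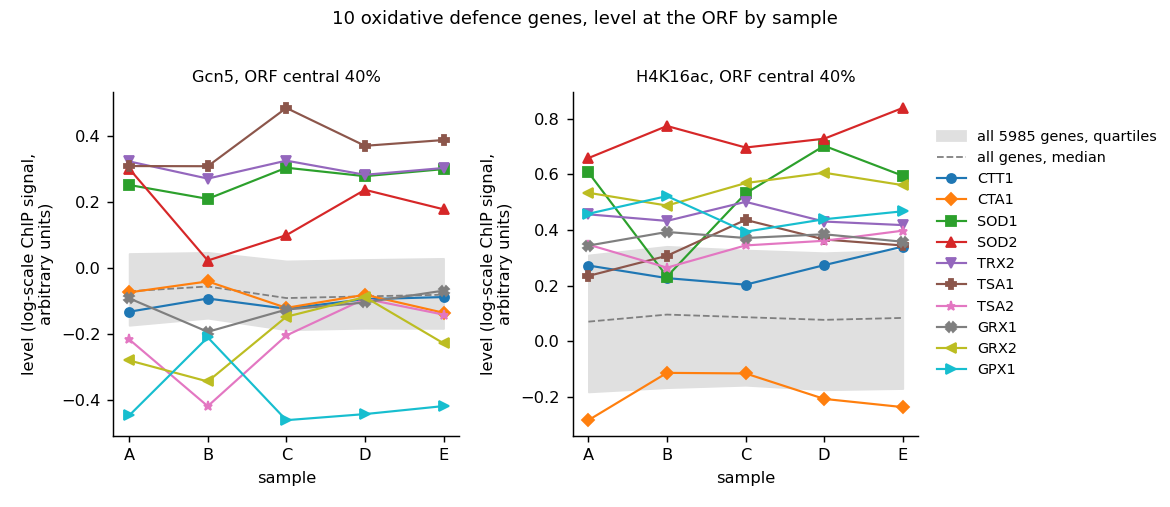
Level at the central 40% of the ORF (y axis, log-scale ChIP signal in arbitrary units) of the 10 genes in samples A to E (x axis) for Gcn5 and H4K16ac, with the quartiles (grey) and the median (dashed) of all genes. In sample B Gcn5 is lower at *SOD2* and *TSA2* and higher at *GPX1* than in any other sample, and H4K16ac of *SOD1* is lower than in its other samples.

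*TRX2*, the gene of a cytosolic thioredoxin and a well known Yap1 target, had an H3K18ac level at the 5′ IGR of 0.87, 1.01, 0.86, 0.88 and 0.94 in samples A to E. The highest was that of sample B, but the difference of 0.15 from sample A did not reach the limit. Its ORF varied little. H3K18ac there lay between 1.06 and 1.11 and Gcn5 between 0.27 and 0.33 over the 5 samples. Behind the stop codon Gcn5 of *TRX2* rose by 0.28, from -0.12 in sample A to 0.16 in sample B, and was 0.011, -0.075 and 0.036 in samples C, D and E. Such a rise at the 3′ IGR was common, being seen at 20.4% of all genes. *CTT1* and *TSA2* also rose there, by 0.28 and 0.37, whereas *SOD2* was the member that fell, with 2.84% of all genes falling.

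The peroxiredoxin paralogues *TSA1* and *TSA2* encode closely related cytosolic enzymes, of which Tsa1 is known as the abundant one and Tsa2 as the rare, inducible one. Array probes in stretches that both genes share may read either gene, so their ORF values are uncertain. *TSA2* had the largest difference of H3K18ac minus H3 at the 5′ IGR among the 10 genes. It was 0.58, 1.03, 0.83, 0.67 and 0.70 in samples A to E. The difference of 0.45 between samples B and A did not pass the limit and lay at percentile 93.9 of all genes. Both antibodies contributed. H3K18ac was 0.64, 0.89, 0.71, 0.66 and 0.75 in samples A to E, and H3 was 0.067, -0.14, -0.11, -0.0067 and 0.044. Sample B was thus the highest in H3K18ac and the lowest in H3, with sample C close to it in H3. H3K18ac minus H3 was higher in sample B in 9 of 9 bins, as at 7.54% of all genes. Over the ORF of *TSA2* H3K18ac rose by 0.24, from 0.64 to 0.88, and was 0.56, 0.66 and 0.72 in samples C, D and E. H3 over the ORF was 0.011 in sample A and between 0.21 and 0.26 in samples B to E, so that H3K18ac minus H3 was 0.63 in sample A against 0.61 in sample B. Gcn5 over the ORF of *TSA2* fell by 0.20, from -0.22 to -0.42, with -0.21, -0.094 and -0.14 in samples C, D and E, while behind the stop codon it rose from -0.24 to 0.12. H4K16ac at the 3′ IGR fell by 0.34, from 0.54 to 0.21, as at 4.78% of all genes, but was 0.22 in sample E too.

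*TSA1* lay above *TSA2* in H3K18ac and Gcn5 at the 5′ IGR in all 5 samples, and below it in H4K16ac. The H3K18ac difference between the genes was 0.52 in sample A against 0.23 in sample B. H3K18ac minus H3 at the 5′ IGR of *TSA1* was 0.99 in sample A and 0.81, 0.63, 0.75 and 0.76 in samples B to E. The genes therefore changed order, though neither gene passed the limit for this measure from sample A to sample B. *TSA1* exceeded *TSA2* by 0.42 in sample A, whereas the difference was -0.22 in sample B and -0.20 in sample C. In samples D and E it was 0.077 and 0.058, in the order of sample A but far smaller. Gcn5 at the 5′ IGR of *TSA1* was 0.14, 0.0095, 0.12, 0.11 and 0.14 in samples A to E. The level of sample B stood alone below the others, which spanned only 0.11 to 0.14, but the difference of -0.13 was within the limit. H3 over the ORF was 0.36 in sample A and 0.55 to 0.59 in the later samples.

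The glutaredoxin genes *GRX1* and *GRX2* encode enzymes that reduce mixed disulphides with glutathione. *GRX2* had H3K18ac levels at the 5′ IGR of 0.92, 0.93, 0.90, 0.96 and 0.88 in samples A to E. H3K18ac minus H3 at its 5′ IGR stayed between 0.82 and 0.88. The annotated 5′ end of *GRX2* overlaps the gene *EMI1*, so its upstream bins are not those of an isolated promoter. *GRX1* had H4K16ac levels at the 5′ IGR of 1.26, 1.32, 1.27, 1.24 and 1.26, the highest of the 10 genes in every sample. H3K18ac at its 5′ IGR was 1.24 in sample A against 1.17 in sample B. No measure of either gene passed the limit from sample A to sample B at the 5′ IGR, the ORF or the 3′ IGR.

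*GPX1*, the gene of a glutathione peroxidase that acts on lipid hydroperoxides, gained Gcn5. At the 5′ IGR samples A to E had levels of -0.34, -0.11, -0.30, -0.36 and -0.34. Samples A, C, D and E lay between -0.36 and -0.30, and sample B was 0.23 above sample A. With H3 subtracted, the Gcn5 difference at the 5′ IGR did not pass the limit. Over the ORF the Gcn5 level was -0.45, -0.21, -0.46, -0.44 and -0.42, again with sample B alone above the others. The rise of 0.24 at the ORF lay at percentile 96.4 of all genes, and 10.8% of all genes rose. At the 5′ IGR Gcn5 was higher in 9 of 9 bins, as at 5.25% of all genes. H3K18ac at the 5′ IGR of *GPX1* was 0.78, 0.87, 0.70, 0.77 and 0.68 in samples A to E, a difference of 0.097 between samples B and A that was within the limit. Its H3 was -0.51 in sample A against -0.47 in sample B.

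Seen over the whole cycle, sample B was the highest of the 5 samples in H3K18ac minus H3 at the 5′ IGR for 7 of the 10 genes and the lowest for none, whereas over all genes sample B was highest for 17.9% and lowest for 31.1%. The 7 genes were *CTT1*, *CTA1*, *SOD2*, *TRX2*, *TSA2*, *GRX2* and *GPX1*, and at *SOD2* (1.40 against 1.39) and *GRX2* (0.88 against 0.86) sample B exceeded sample A by very little. With values as deposited or quantile normalization *TRX2* was not among them. In the 4 bins nearest the start codon *TRX2* had 0.79 in sample B against 0.92 in sample E. In the 4 bins nearest the start codon sample B was highest for only 3 of the 10 genes, *CTT1*, *CTA1* and *TSA2*, against 17.0% of all genes. The differences were small, with a median of 0.045 against sample A. From sample B to sample C the level was lower at 10 of the 10 genes, with a median of -0.19. Over all genes 47.8% were lower and the median was 0.012. None of the 10 genes passed the limit over this step, and 8.64% of all genes did. From sample C to sample D it was higher at 8 of the 10 genes, with a median of 0.15, against 59.7% and 0.056 over all genes. The steps share samples B and C and are not independent of each other. Between samples E and A the median difference was -0.16 for the 10 genes and -0.089 for all genes, and *CTA1*, with -0.64, was the only member beyond the limit, where 3.89% of all genes fell. Samples A and E had the same medium, and the size of this median difference exceeded that between samples B and A.

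At the ORF Gcn5 was lowest in sample B for 7 of the 10 genes and highest for 2, *CTA1* and *GPX1*. Over all genes sample B was lowest for 21.9% and highest for 42.0%. With values as deposited these shares were 34.4% and 28.6%. Over all 20 bins of the ORF both counts were 4 of 10, against 22.9% and 42.7% of all genes. Over the genes shorter than 1 kb, 743 of 2395 had their lowest and 732 their highest level in sample B. From sample B to sample C Gcn5 at the ORF rose at *TSA1*, *TSA2* and *GRX2* and fell at *GPX1*, with 4.90% of all genes rising and 11.6% falling. H3K18ac at the ORF fell at *CTA1*, *TSA1* and *TSA2* over the same step, where 11.3% of all genes fell.

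A further 28 oxidative defence genes were taken for comparison. They include genes of thioredoxin, peroxiredoxin, glutaredoxin and glutathione enzymes, among these glutathione peroxidases and transferases. Other peroxidase, repair and copper chaperone genes and the regulators *YAP1* and *SKN7* are among them too. Of the 28 genes, 2 rose in H3K18ac minus H3 at the 5′ IGR from sample A to sample B and none fell. Over all genes 3.22% rose and 4.7% fell. The median change of the 28 genes was 0.0081. The 2 were *PRX1*, the gene of the mitochondrial peroxiredoxin, with 0.35 in sample A and 1.67 in sample B, and *ECM4*, the gene of an omega-class glutathione transferase, with 0.61 and 1.42. For *PRX1* the levels in samples C, D and E were 0.42, 0.77 and -0.090, so that sample B alone was high. For *ECM4* they were 0.82, 0.92 and 0.94. H3K18ac at the ORF rose at 8 of the 28 genes and fell at none, where 9.59% of all genes rose and 5.53% fell. By comparison, the median change of H3K18ac minus H3 at the 5′ IGR over 10 heat shock and hyperosmotic marker genes was 0.48, and 3 of the 10 rose. Their median H3 level at the 5′ IGR was -0.22 in sample A against -0.69 in sample B, whereas that of the oxidative defence genes was -0.018 and 0.0085. Their median H3 change gene by gene was only -0.17, and 1 of the 10 fell, against 2.17% of all genes. Of the oxidative defence genes only *CTT1* (-0.23) and *TSA2* (-0.21) were lower in H3 by as much as this median or more. *CTA1* differed by 0.32 in the other direction.

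The genes most like *TSA2* in their changes from sample A at the 5′ IGR were *SIP2*, *MEF2*, *GLO1*, *GSM1* and YHR112C. Likeness was the Euclidean distance over 16 values, the changes to samples B, C, D and E of 4 antibodies, and it ran from 0.224 to 0.260, against a median of 0.730 over all genes. *MEF2* and *GSM1* are divergent neighbours that share an intergenic region. H3K18ac of these genes was higher by 0.10 to 0.23 in sample B than in sample A, and H3 differed by -0.15 to -0.13. The genes were picked by these same changes, so sharing the direction of *TSA2* follows from the choice.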

How the data were processed

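Gcn5-myc, H3K18ac, H4K16ac and H3 were measured in samples A to E, with 1 deposited file for each of the 20 combinations of antibody and sample, and samples were grouped by these labels only. The authors used Affymetrix yeast tiling arrays for ChIP and input DNA, obtained the signal from Affymetrix Tiling Analysis Software, normalized the 5 samples to the same median and averaged the signal into 38 bins per gene. The deposited values are a score, this log-scale signal in arbitrary units. Genome build, probe positions and software version are not given in the sources used here. Array values have no read depth, and their precision is limited by how many arrays there were. The study's methods give one catalogue number for both the H3K18ac and the H3 antibody, which the labels give for H3K18ac only.

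Each file listed 6685 genes. Genes with values, none above 20 in size, and annotated as nuclear protein-coding by RefSeq (assembly R64, used for names, lengths and neighbours only) were kept. The deposited medians over these genes differed slightly, and the 5 samples of an antibody were brought to the mean of their medians. H3 was corrected for by subtraction within gene, bin and sample. The bin order was checked: the outermost bins of neighbouring genes correlated across 5225 pairs with Spearman's rho of 0.53 in the stated order and 0.052 in the opposite one. Exact zeros were kept. The Gcn5 values of sample A included 2911 and the H4K16ac values of sample E 1325. *SOD2* and *GRX1* had 1 zero each, counted over all antibodies and samples. A percentile is the place of a gene among all genes analysed.

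The members and lists were chosen with earlier results of these data known. All 10 members are named. Of the 28 other defence genes those beyond the limit in H3K18ac minus H3 at the 5′ IGR are named, the marker genes are given by counts and medians, and the 5 genes nearest to the member with the largest such difference are named. Alternatives covered the normalization, the bins, the genes included, the unstressed sample, the limit and the H3 correction. Software was matplotlib 3.10.9, scipy 1.17.1, numpy 2.4.6 and pandas 2.3.3 under Python 3.11.15.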

Additional observations from a re-analysis of the deposited data

How the results depend on the processing

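No paired analysis was possible because there is 1 deposited file per antibody and sample and the labels carry no replicate numbers. With 1 value per condition a change is compared with other samples and other genes only, and the probes behind a short gene are unknown. Alternatives were run for sample B minus sample A of each antibody at the 5′ IGR and ORF. For H3K18ac minus H3 at the 5′ IGR they were run for the later steps too. In these comparisons 11 changes of single genes were beyond the limit. All kept their sign under every alternative tried, except Gcn5 at the 5′ IGR of *CTA1* after subtraction of H3, which was -0.089. Other changes beyond the limit, such as those of Gcn5 or H3K18ac from sample B to sample C, were not tried in this way.

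The medians over the 10 genes were small, and several changed sign. With the mean of samples A and E in place of sample A, the difference of sample B was 0.074 for H3K18ac and 0.10 for H3K18ac minus H3 at the 5′ IGR, and 0.034 for H3 and 0.0067 for H4K16ac at the ORF. In the 4 bins nearest the start codon sample B minus sample A was 0.063 for H3 and -0.049 for H3K18ac minus H3, and in the 4 farthest bins -0.066 for H3, 0.019 for H4K16ac and -0.035 for Gcn5. With values as deposited it was 0.015 for Gcn5 at the 5′ IGR, 0.0053 for H4K16ac and -0.077 for Gcn5 at the ORF. With the median over bins it was 0.0052 for Gcn5 at the 5′ IGR, 0.027 for H4K16ac and -0.014 for Gcn5 at the ORF. Quantile normalization gave 0.090 for H3K18ac minus H3 at the 5′ IGR and -0.091 for Gcn5 at the ORF. Gcn5 at the ORF was 0.0062 over all 20 bins and -0.13 after subtraction of H3. Without *TSA1* and *TSA2* the ORF differences were 0.0043 for H3K18ac and 0.051 for H3.

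For H3K18ac minus H3 at the 5′ IGR, sample C minus sample B was -0.15 in the nearest and -0.23 in the farthest bins. Sample D minus sample C was 0.078 with quantile normalization, 0.049 with the median over bins, 0.20 without *TSA1* and *TSA2* and 0.052 in the farthest bins. Sample E minus sample A was -0.12 as deposited, -0.0070 with quantile normalization, -0.054 with the median over bins and 0.019 in the farthest bins.

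With the limit at the 90th percentile, the genes beyond it from sample A to sample B were 2 for H3K18ac and 1 for H4K16ac at the 5′ IGR, and 4 for H3K18ac, 3 for H3 and 2 for H4K16ac at the ORF; 1 gene passed in H3K18ac minus H3 from sample B to sample C. At the 99th percentile 0 remained for H3K18ac and 0 for Gcn5 at the 5′ IGR, 1 for H3K18ac and 1 for Gcn5 at the ORF, and 0 for sample E minus sample A. The shares of all genes beyond these other limits were not counted, so these numbers cannot be set against them.

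Alternatives for the order of the 5 samples were chosen after seeing the data. For H3K18ac minus H3 at the 5′ IGR, sample B was highest at 3 genes in the 4 bins nearest the start codon, at 5 with the median over bins (where it was lowest at 1) and at 6 with values as deposited, quantile normalization or the farthest bins. Over all genes the shares were 17.0% in the nearest bins and 17.4% with the median over bins (30.3% lowest). They were 17.7% as deposited, 19.2% with quantile normalization and 18.2% in the farthest bins. For Gcn5 at the ORF, sample B was lowest at 4 genes with the median over bins and at 4 over all 20 bins. It was highest at 3 and 4 genes, respectively. After subtraction of H3 these counts were 5 and 3. The counts stayed at 7 and 2 with values as deposited and quantile normalization. Over all genes sample B was then lowest for 34.4% and 30.4%, respectively, and highest for 28.6% and 31.1%. The main shares were 21.9% and 42.0%. The cause of these shifts was not tested.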
